A study of Mus musculus with 6 samples.

Results

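The genes described here serve the presentation of peptides on major histocompatibility complex (MHC) class I molecules. They are 10 listed genes, taken by name: the heavy chains H2-K1, H2-D1 and H2-T23, the light chain B2m, the peptide transporter subunits Tap1 and Tap2, the loading factor Tapbp, the immunoproteasome subunits Psmb8 and Psmb9, and the regulator Nlrc5. Of these, 9 had a named probe set among the 16387 named genes of the array, with 1 probe set each, and H2-T23 was not analysed here. Of the 9, 7 lie on mouse chromosome 17, B2m lies on chromosome 2 and Nlrc5 on chromosome 8.

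The cells were RAW264.7, an established mouse macrophage line, on 6 Affymetrix arrays. Clone 8 carried a recombinant Ms4a8a cDNA (3 arrays) and clone 3 carried the empty expression vector (3 arrays). Both had been transfected with Lipofectamine, selected with blasticidin and kept for 48 h in medium with 10% serum. Each arm was a single clone, so the transgene and the clone cannot be told apart. Whether the arrays of 1 clone stand for independent cultures is not stated in the labels, so a p-value here weighs a difference against array-to-array spread that may be purely technical. The titles number the arrays 1 to 3 in each clone.

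Class I molecules show short peptides from the cell's own proteins to cytotoxic T cells. The proteasome cuts proteins into peptides, and its inducible catalytic subunits replace the standard ones to form the immunoproteasome. The transporter associated with antigen processing (TAP) moves peptides into the endoplasmic reticulum, where tapasin and other chaperones load them on a heavy chain paired with beta-2 microglobulin. Interferons induce most of these genes, and NLRC5 is known as a transactivator of their promoters. RAW264.7 cells come from BALB/c mice, whose class I alleles differ from those of the C57BL/6J reference, and the class I heavy chain genes are close relatives. The values of H2-K1 and H2-D1 are therefore uncertain as to which gene they reflect.

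The promoters of the genes below are shown as a description, and their link to the array values was not tested. Each is 300 bases from RefSeq (GRCm38.p6, the C57BL/6J genome), from 250 bases before to 50 after the annotated start, written 5′ to 3′ on the gene's strand. The second of 2 annotated H2-K1 windows, which start 14 bases apart, is shown. H2-K1 is from chr17:34000284-34000583 (minus strand), H2-D1 from chr17:35262844-35263143 (plus), B2m from chr2:122147437-122147736 (plus) and Tap1 from chr17:34187306-34187605 (plus). Capitals mark matches, on either strand, to any of the motifs searched.
H2-K1: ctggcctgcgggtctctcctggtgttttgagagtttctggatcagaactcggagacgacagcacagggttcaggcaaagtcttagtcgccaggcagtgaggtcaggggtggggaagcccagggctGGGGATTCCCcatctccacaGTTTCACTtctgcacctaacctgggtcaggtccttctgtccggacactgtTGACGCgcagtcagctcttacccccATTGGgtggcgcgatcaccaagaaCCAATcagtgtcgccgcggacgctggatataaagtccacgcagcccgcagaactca
H2-D1: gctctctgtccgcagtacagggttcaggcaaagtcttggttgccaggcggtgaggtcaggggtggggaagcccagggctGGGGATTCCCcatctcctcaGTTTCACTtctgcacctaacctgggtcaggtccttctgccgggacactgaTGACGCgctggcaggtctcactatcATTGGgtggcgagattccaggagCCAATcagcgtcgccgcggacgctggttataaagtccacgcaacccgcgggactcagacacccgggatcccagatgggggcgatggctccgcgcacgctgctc
B2m: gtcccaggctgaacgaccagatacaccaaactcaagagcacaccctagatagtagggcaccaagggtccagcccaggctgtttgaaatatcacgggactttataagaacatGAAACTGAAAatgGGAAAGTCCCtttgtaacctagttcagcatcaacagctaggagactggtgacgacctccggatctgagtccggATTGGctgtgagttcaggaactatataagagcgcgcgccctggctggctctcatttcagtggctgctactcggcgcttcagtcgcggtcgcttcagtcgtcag
Tap1: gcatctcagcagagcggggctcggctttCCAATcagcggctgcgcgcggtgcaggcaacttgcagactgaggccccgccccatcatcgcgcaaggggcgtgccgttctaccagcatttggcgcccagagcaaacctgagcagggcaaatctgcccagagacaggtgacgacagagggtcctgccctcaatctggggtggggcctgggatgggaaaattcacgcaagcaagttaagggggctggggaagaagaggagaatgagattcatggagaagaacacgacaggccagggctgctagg

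The motifs searched, on both strands, were a pair of GAAA blocks with 2 free bases between them (like an interferon-stimulated response element, ISRE), TTCNNNGAA (like a STAT site), 3 forms of a kappa B site, CCAAT, and TGACGT and TGACGC (like a cyclic AMP response element or the X2 box). The kappa B forms were GGGANTTCC, the first run of capitals in the H2-K1 sequence, and the reverse complement of the second run of capitals in the B2m sequence. The core AGTGAAAC of the class I ISRE was added after the windows had been read. Windows were found for 8 of the 10 listed genes. No match was found for GGGANTTCC or TGACGT in these 8, which says only that those letters are not in the windows.

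The windows of H2-K1 and H2-D1 shared 1 arrangement of matches. In both, counted from first base to first base, the kappa B match lay 20 bases before AGTGAAAC (reverse strand) and 70 bases before TGACGC, and CCAAT (reverse strand) followed 25 bases after TGACGC. Of all 32851 windows, 0.107% held that kappa B form, 0.916% held AGTGAAAC, 7.4% held TGACGC and 37.4% held CCAAT. These shares are a description, and AGTGAAAC was added with the windows known, so its matches here are no test. B2m held the ISRE-like match (3.44% of all windows) 139 bases before its start and its own kappa B match (0.155%), on the reverse strand, at 126 bases. Tap1 and Psmb9 start 226 bases apart in opposite directions, so that 275 bases of their windows are the same, and Psmb8 held TTCNNNGAA (8.30% of all windows) and, 17 bases after its start, AGTGAAAC on the reverse strand. The window of H2-T23 also held the ISRE-like match. CCAAT was found in 7 of the 8 windows, all but that of Psmb8. The matches of Tap1 and Psmb9 are the same site, read on opposite strands, in the bases that their windows share. GGGANTTCC was found in 1.68% of all windows and TGACGT in 7.51%.

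The heavy and light chains read high on all 6 arrays, against a table median of 5.94 on the log2 scale. H2-K1, a classical heavy chain, read 10.74, 10.58 and 11.85 on Ms4a8a arrays 1, 2 and 3, and 10.35, 10.36 and 12.03 on vector arrays 1, 2 and 3. H2-D1, the other classical heavy chain measured, read 12.22, 12.12 and 13.20 in the Ms4a8a clone and 12.01, 11.95 and 13.30 in the vector clone. B2m, the light chain shared by all class I molecules, read 12.64, 12.15 and 13.25 in the Ms4a8a clone and 12.53, 12.24 and 13.40 in the vector clone. The array of number 3 was the highest for all 3 genes in both clones, and the clones overlapped.

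The transporter and loading genes followed. Tap1 read 5.94, 5.67 and 6.24 on the Ms4a8a arrays and 5.96, 5.86 and 6.65 on the vector arrays. Tap2, the partner subunit of the transporter, read 7.20, 7.22 and 8.08 on the Ms4a8a arrays and 7.56, 7.61 and 8.28 on the vector arrays. Tapbp, which encodes tapasin, the bridge between the transporter and the heavy chain, read 10.02, 9.74 and 10.77 on the Ms4a8a arrays and 9.70, 9.61 and 10.51 on the vector arrays. Number 3 was again the highest array of each clone for each gene, and the clones overlapped in each.

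The immunoproteasome genes had the lowest SDs of the 9 genes over the 6 arrays (0.32 for Psmb8 and 0.33 for Psmb9). That of Tap1 was close (0.35), and within the Ms4a8a clone Tap1 varied less than both. Psmb8, which encodes the inducible beta5i subunit, read 9.60, 9.80 and 10.44 on the Ms4a8a arrays and 10.01, 10.21 and 10.32 on the vector arrays. Psmb9, which encodes beta1i, read 7.83, 7.67 and 8.30 on the Ms4a8a arrays and 7.91, 8.17 and 8.56 on the vector arrays. For Psmb8 the vector array of number 3 lay only 0.21 above the mean of the other 2 vector arrays. Nlrc5 read 6.77, 6.39 and 7.87 on the Ms4a8a arrays and 6.84, 6.46 and 8.36 on the vector arrays, with number 3 the highest in both clones. Detection calls were not used here. Levels are set against the table median only as a description, and no test compared different probe sets.

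**Figure D1:**
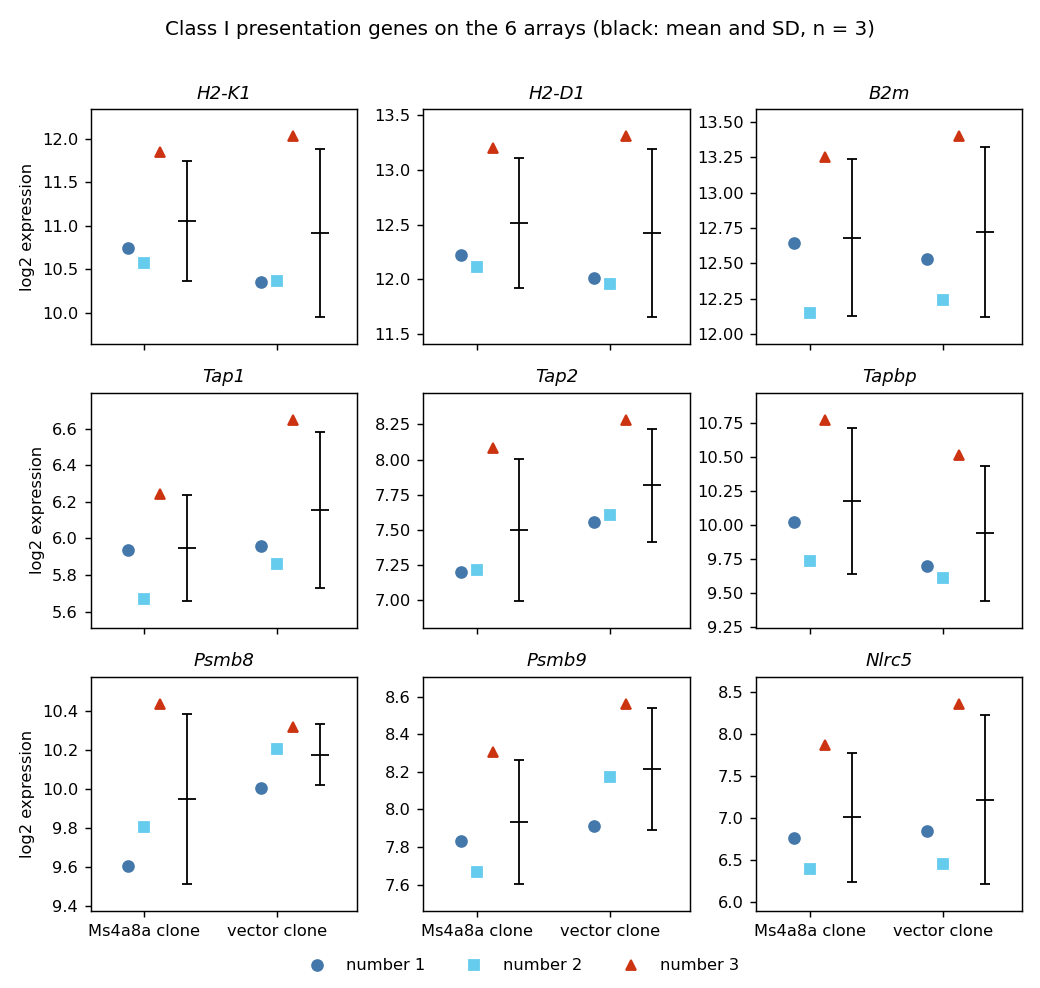
Log2 expression (vertical axis, own scale in each panel) of the 9 measured class I presentation genes on the 3 arrays of the Ms4a8a clone (left) and the 3 of the vector clone (right). Marker shape gives the replicate number, and black bars give the mean and SD (n = 3). In each panel the array of number 3 is the highest of its clone.

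None of the 9 genes passed the test between the Ms4a8a clone and the vector clone. The transgene itself did: Ms4a8a averaged 7.81 ± 0.38 in the Ms4a8a clone and 3.21 ± 0.13 in the vector clone (SD, n = 3 each; log2 difference 4.61, limma adjusted p = 0.0121). With limma on all genes and Benjamini-Hochberg adjustment, 0 of 9 members passed an adjusted p of 0.05, where 0.0427% of all genes did. At an unadjusted p under 0.05 there were also 0 of 9 members, against 3.2% of all genes. In a model blocked on the replicate number, 0 of 9 passed the adjusted threshold, against 0.909% of all genes, and 3 of 9 had an unadjusted p under 0.05, against 13.3% of all genes.

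The largest clone differences were those of Tap2, Psmb9 and Tapbp. Tap2 averaged 7.50 ± 0.50 in the Ms4a8a clone and 7.82 ± 0.40 in the vector clone (SD, n = 3 each), a log2 difference of -0.31 with a 95% interval from -1.10 to 0.47, or from -0.51 to -0.12 with the block (limma blocked adjusted p = 0.173). Tapbp averaged 10.18 ± 0.53 in the Ms4a8a clone and 9.94 ± 0.50 in the vector clone, a log2 difference of 0.24 (95% interval -0.64 to 1.12; blocked 0.04 to 0.43, blocked adjusted p = 0.294). Psmb9 averaged 7.93 ± 0.33 in the Ms4a8a clone and 8.22 ± 0.33 in the vector clone, a log2 difference of -0.28 (95% interval -0.86 to 0.30; blocked -0.53 to -0.04, blocked adjusted p = 0.320). These 3 genes are the ones with a blocked unadjusted p under 0.05, and none passed over all genes.

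The chains were closest to no difference. H2-K1 differed by 0.14 (95% interval -1.27 to 1.56; blocked -0.15 to 0.43), H2-D1 by 0.09 (-1.07 to 1.25; blocked -0.13 to 0.32) and B2m by -0.04 (-1.03 to 0.94; blocked -0.25 to 0.17). Psmb8 differed by -0.23, Tap1 by -0.21 and Nlrc5 by -0.21, and the blocked intervals of all 3 held 0. The intervals without the block were wide enough to hold a 2-fold difference in one or both directions for H2-K1, H2-D1, B2m, Tap2, Tapbp and Nlrc5. With the block no interval of the 9 reached 1 log2 unit.

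Taken number by number, the clone differences went both ways. Tapbp was higher in the Ms4a8a clone at all 3 numbers (0.32, 0.12 and 0.26), as were 17.2% of all genes. Tap1, Tap2, Psmb9 and Nlrc5 were lower in it at all 3 numbers, as were 18.9% of all genes. The remaining 4 genes changed sign between numbers. H2-K1 differed by 0.39, 0.21 and -0.18 at numbers 1, 2 and 3, and Psmb8 by -0.40, -0.40 and 0.12. The median difference was -0.21 over the 9 members and -0.0049 over all genes. The members' median turned positive without vector array 3 (0.30) and without Ms4a8a array 2 (0.10), and was -0.06 without Ms4a8a array 1.

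**Figure D2:**
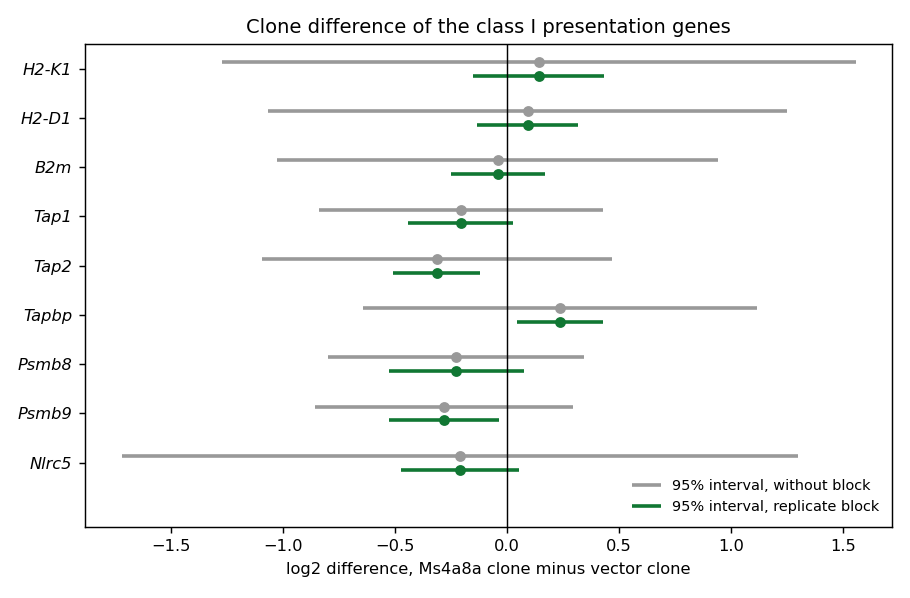
Log2 difference of the Ms4a8a clone minus the vector clone (horizontal axis) for the 9 genes, with 95% intervals from limma without the block (grey, upper) and with the replicate number as a block (green, lower). The points lie between -0.31 for Tap2 and 0.24 for Tapbp, and all grey intervals hold 0.

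The members were higher at replicate number 3 in both clones. Of the 9 genes, 8 passed limma's F-test of the replicate number in a model with clone and number (adjusted p = 0.000911 to 0.0270), where 30.1% of all genes passed. In all 8 the mean of the arrays of number 3 lay above that of numbers 1 and 2, a combination found in 14.6% of all genes. Psmb8 was the exception, with an F-test adjusted p of 0.0721, and passed without vector array 3 (0.00559). Tap1 did not pass without Ms4a8a array 2 (0.0527) or vector array 2 (0.0554), nor Psmb9 without Ms4a8a array 3 (0.0855) or vector array 3 (0.0716). That number 3 stands apart on these arrays was known from earlier results on the same data, so the sizes below are a description. The F-test takes the 3 numbers jointly, so a pass does not show which number differs. Below, higher or lower at number 3 means against the mean of numbers 1 and 2, averaged over the clones.

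Nlrc5 and the heavy chains were furthest apart between numbers. At number 3 Nlrc5 was 2.45-fold above the mean of numbers 1 and 2 in the Ms4a8a clone and 3.28-fold in the vector clone (log2 differences 1.29 and 1.71, F-test adjusted p = 0.000911). H2-K1 was 2.28-fold and 3.18-fold above it (log2 differences 1.19 and 1.67, F-test adjusted p = 0.00153), and H2-D1 2.04-fold and 2.50-fold (1.03 and 1.32, F-test adjusted p = 0.00127). These 3 genes lay at least 1 log2 unit above that mean in both clones, as did 3.73% of all genes. B2m differed by 0.86 in the Ms4a8a clone and 1.01 in the vector clone (F-test adjusted p = 0.00161).

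The transport genes and the proteasome subunits moved less. Tapbp differed between number 3 and the other numbers by 0.89 in the Ms4a8a clone and 0.86 in the vector clone (F-test adjusted p = 0.00185), Tap2 by 0.87 and 0.70 (0.00281) and Tap1 by 0.44 and 0.74 (0.0144). Psmb9, which starts next to Tap1, differed by 0.56 and 0.52 (0.0270). Psmb8 differed by 0.73 in the Ms4a8a clone and 0.21 in the vector clone. All 9 genes were highest at number 3 in both clones, against 26.3% of all genes. The median difference of the members was 0.87 in the Ms4a8a clone and 0.86 in the vector clone, against -0.02 and -0.04 over all genes.

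**Figure D3:**
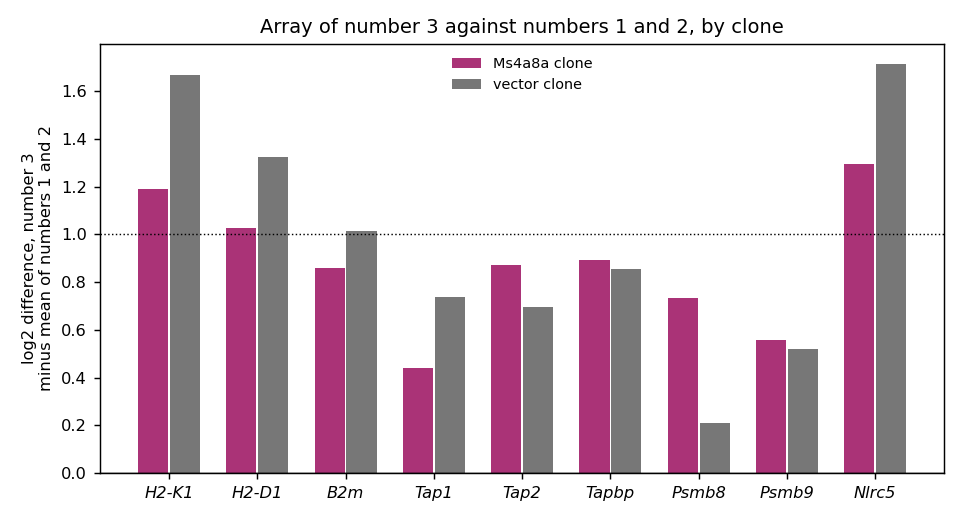
Log2 level of the array of number 3 minus the mean of numbers 1 and 2 (vertical axis) for the 9 genes, in the Ms4a8a clone (left bars) and the vector clone (right bars). The dotted line marks 1 log2 unit. All bars are positive, and H2-K1, H2-D1 and Nlrc5 pass the line in both clones.

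Numbers 1 and 2 were also set against each other, in a limma test of those 4 arrays that was added after the data had been seen. None of the 9 members passed the adjusted threshold, which 0.116% of all genes did (19 genes). An unadjusted p under 0.05 was found for 3 of the 9 members and for 1671 of all 16387 genes. Number 2 minus number 1, averaged over the clones, was -0.38 for Nlrc5, -0.39 for B2m and 0.20 for Psmb8, which are those 3. Nlrc5 lay lower at number 2 than at number 1 in both clones, by 0.38 log2 units in each. For H2-K1 the same difference was -0.16 in the Ms4a8a clone and 0.0098 in the vector clone.

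The members correlated with each other over the 6 arrays, all of which share the step between number 3 and the other numbers. Over the 36 pairs, Pearson's r had a median of 0.88 and ran from 0.58 for Tapbp with Psmb8 to 0.998 for H2-K1 with H2-D1. Nlrc5 had the highest r with the mean of the other members (0.98) and Psmb8 the lowest (0.71). Tap1 and Psmb9 had an r of 0.90. These values are a description over 6 arrays that share that step.

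The gene with the pattern most like the mean of the members, among 4112 other genes with an SD of at least 0.3 over the arrays, was Cd74, the invariant chain of class II molecules (r = 0.998). It read 10.00, 9.49 and 11.81 on the Ms4a8a arrays and 10.05, 9.93 and 12.11 on the vector arrays. Next came Cbll1, Paip2, Trp53inp1, Zmiz2 and Aif1, all with r = 0.998. The lowest values were those of Bag1 and Rnpc3 (r = -0.998 for both) and Fgf13 (r = -0.997). An r of at least 0.9 was found for 29.8% of the 4112 genes, so a high value is common here.

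Of the standard catalytic subunits, 1 of 2 measured passed the F-test, as did 30.1% of all genes. Psmb7, the standard beta2 subunit, was lower at number 3, with -0.61 in the Ms4a8a clone and -0.77 in the vector clone (F-test adjusted p = 0.00370). Psmb6, the standard beta1 subunit that Psmb9 replaces, differed by -0.18 and -0.39 (0.126). Psmb10, the third inducible subunit, differed by -0.11 and -0.55 (0.147). Psmb6 and Psmb10 are named after their values were seen.

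Of 7 other subunits of the 20S core, 5 were lower at number 3 by the F-test, Psmb1 was higher and 1 did not pass. The combination of a passed F-test and a lower mean at number 3 was found in 15.6% of all genes. Psmb1, named after its values were seen, differed by 0.45 in the Ms4a8a clone and 0.28 in the vector clone. Psmb2 differed by -0.77 in the Ms4a8a clone and -1.08 in the vector clone, Psma1 by -0.63 and -0.50, Psma2 by -0.42 and -0.62 and Psmb4 by -0.56 and -0.39. Of 15 subunits of the 19S regulatory particle, which recognises and unfolds ubiquitin-tagged proteins, 13 were lower at number 3, Psmd8 was higher and 1 did not pass, with 14 lowest at number 3 in both clones (33.1% of all genes). Psmd8, named after its values were seen, differed by 0.73 in the Ms4a8a clone and 0.81 in the vector clone. Psmd7 differed by -1.18 and -1.33, Psmc3 by -1.08 and -1.05, Psmd1 by -0.94 and -1.13 and Psmc4 by -0.73 and -0.83.

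Among 10 genes for activators, assembly factors, an inhibitor and Psmb10, 5 were lower (15.6% of all genes), Psmg4 was higher (14.6%) and 4 did not pass. Psmg4, named after its values were seen, differed by 0.55 in the Ms4a8a clone and 0.67 in the vector clone. The assembly chaperone genes Psmg3 and Psmg1 differed by -0.99 each, the activator gene Psme3 by -0.68 and the maturation factor gene Pomp by -0.65, as means of both clones. Psme1, which encodes the alpha subunit of the interferon-inducible activator PA28, differed by 0.26 (F-test adjusted p = 0.168) and is named after its values were seen. None of the proteasome genes in these lists passed in the clone comparison, against 0.0427% of all genes, or with the block, against 0.909%.

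Among the genes of the endoplasmic reticulum that serve class I loading, more were lower than higher at number 3. Of 13 loading and quality control genes, 5 were lower (15.6% of all genes), Derl1 was higher (14.6%) and 7 did not pass. Derl1, named after its values were seen, differed by 0.61 in the Ms4a8a clone and 0.68 in the vector clone. Pdia3, the ERp57 component of the loading complex, differed by -1.45 in the Ms4a8a clone and -1.67 in the vector clone (F-test adjusted p = 0.000463). Calr, which encodes calreticulin, differed by -0.96 and -0.82 (0.00165), the chaperone gene Hspa5 by -1.36 and -0.75 (0.00699) and Erap1, which trims peptides to class I length, by -0.72 and -0.62 (0.00371). Of 8 cytosolic peptidases, 4 were lower, Npepps was higher and 3 did not pass. Thop1, Prep and Blmh differed by -1.12, -0.97 and -0.86 as means of both clones, and Npepps by 0.79.

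Other class I and class I-like genes were split by the F-test. Of 11 measured, 5 were higher at number 3 (14.6% of all genes), Hfe was lower (15.6%) and 5 did not pass. Mr1, which presents vitamin B metabolites to a class of T cells, read 7.87 at number 3 and 4.40 and 4.46 at numbers 1 and 2 of the Ms4a8a clone, and 7.90 at number 3 and 4.50 and 4.51 at numbers 1 and 2 of the vector clone (F-test adjusted p = 0.000127). H2-T24 differed by 2.28 in the Ms4a8a clone and 2.34 in the vector clone, H2-Bl by 1.18 and 1.72, and Fcgrt, the neonatal Fc receptor chain that pairs with B2m, by 1.39 and 1.37. H2-M3 was the fifth, with 1.10 and 1.55, and like Hfe is named after its values were seen.

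Regulators of the class I promoters went both ways with the replicate number. Of 20 measured, 7 were higher at number 3 (14.6% of all genes), 4 were lower (15.6%) and 9 did not pass. Irf8, an interferon regulatory factor of macrophages, differed by 1.97 in the Ms4a8a clone and 1.43 in the vector clone, Relb, a subunit of NF-kappa B, by 1.21 and 2.20, and Irf9, the DNA-binding part of the type I interferon complex, by 0.93 and 0.81. Ezh2, the histone methyltransferase of the Polycomb complex, differed by -1.80 and -1.38. The other higher genes were Nfkb2, Rela, Rfx5 and Irf1, with 0.70, 0.65, 0.51 and 0.48 as means of both clones. The other lower genes were Eed, Atf1 and Creb1, with -0.81, -0.52 and -0.41. These genes, from Nfkb2 to Creb1, are named after their values were seen. No regulator passed in the clone comparison, against 0.0427% of all genes, or with the block, against 0.909%.

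Interferon-inducible genes outside the pathway moved in part. Of 25 measured, 8 were higher at number 3 by the F-test (14.6% of all genes), 0 were lower (15.6%) and 17 did not pass. In all, 30.1% of all genes passed that test. The list medians were 0.03 in the Ms4a8a clone and 0.06 in the vector clone. Bst2, the restriction factor tetherin, differed by 2.12 and 1.81, and Oas3, an oligoadenylate synthetase, by 1.40 and 1.57. Of the receptor and signalling genes, 5 of 14 were higher and 2 lower. Usp18, a feedback inhibitor of interferon signalling, differed by 2.03 in the Ms4a8a clone and 2.48 in the vector clone, Socs3 by 2.10 and 1.72, Tyk2 by 0.82 and 1.06 and Jak1 by 0.38 and 0.52.

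In the clone comparison with the block, 2 of these 25 genes fell in the Ms4a8a clone, against 0.452% of all genes. They were the interferon-inducible GTPase gene Ifi47 (log2 difference -1.45, blocked adjusted p = 0.00453) and the RNA sensor gene Ifih1 (-1.23, blocked adjusted p = 0.0139), and neither passed without the block. Both were also higher at number 3, Ifi47 by 1.13 in the Ms4a8a clone and 0.84 in the vector clone and Ifih1 by 0.96 and 0.77.

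Class II presentation genes passed in part at number 3. Of 9 measured, 4 passed the F-test and were higher (14.6% of all genes), and 5 did not pass. H2-Ob and H2-Oa, chains of the class II-like molecule DO, differed by 3.49 and 1.61 in the Ms4a8a clone and by 4.12 and 2.70 in the vector clone. Cd74 differed by 2.07 and 2.12 and H2-DMa by 2.02 and 1.59.

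**Figure D4:**
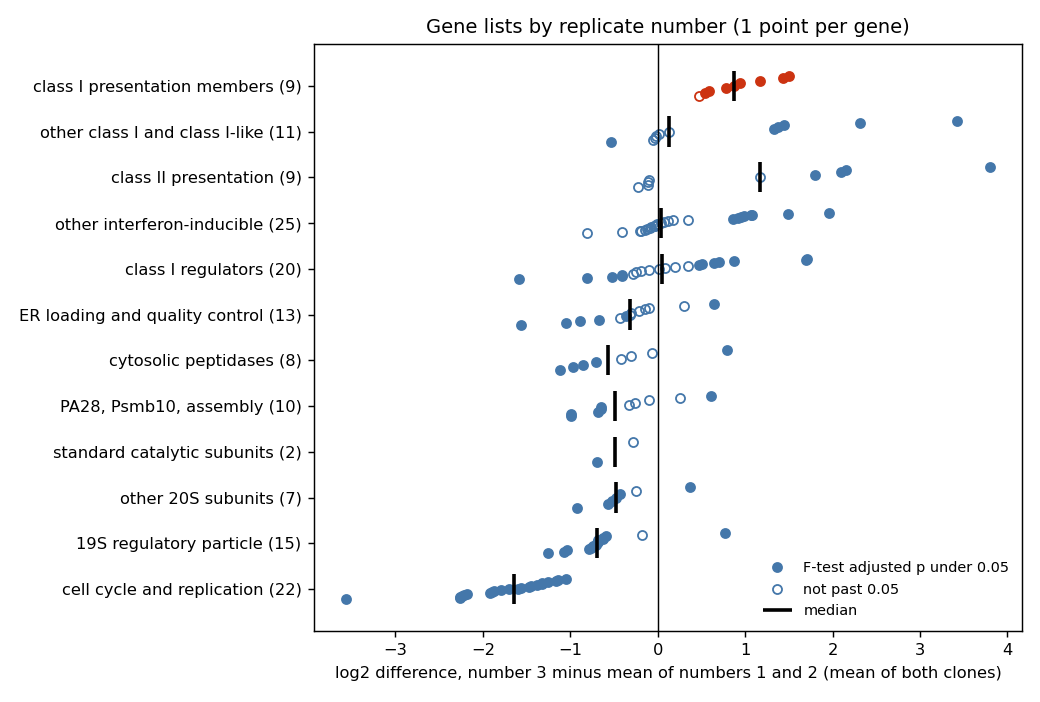
Log2 level at number 3 minus the mean of numbers 1 and 2, averaged over the clones (horizontal axis), with 1 point per gene and 1 row per gene list (number of measured genes in brackets). Filled points passed limma's F-test of the replicate number, open points did not, and black bars are medians. All 9 members lie right of 0, while 14 of 15 genes of the 19S regulatory particle and all 22 cell cycle genes lie left of it.

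Other features of the arrays moved with number 3. Over all genes, 14.6% passed the F-test and were higher there, and 15.6% passed and were lower. Of 22 cell cycle and DNA replication genes, 22 were lower there by the F-test, with list medians of 11.01, 11.02 and 8.97 on Ms4a8a arrays 1, 2 and 3 and 11.12, 11.13 and 9.84 on the vector arrays. Ccne2, a cyclin of S phase entry, differed by -4.00 in the Ms4a8a clone and -3.12 in the vector clone, Rrm2 and Rrm1, the subunits of ribonucleotide reductase, by -2.97 and -1.55 and by -2.66 and -1.86, and the replication helicase gene Mcm4 by -2.92 and -1.56. Of 8 macrophage markers, 4 were higher at number 3, namely Adgre1, a surface marker of mature macrophages (2.12 in the Ms4a8a clone and 2.48 in the vector clone), Itgam (1.66 and 2.06), Spi1 (0.37 and 0.45) and Cd68 (0.30 and 0.44), with list medians of 10.64 at number 3 and 9.67 and 9.87 at numbers 1 and 2 in the Ms4a8a clone and 10.47, 9.66 and 9.76 in the vector clone. The 3′ minus 5′ control signal of beta-actin was 0.45 log2 units at number 3 and 0.12 and 0.17 at numbers 1 and 2 in the Ms4a8a clone, and 0.62, 0.17 and 0.17 in the vector clone, and that of Gapdh was -0.06 at number 3 and -0.19 and -0.16 at numbers 1 and 2 in the Ms4a8a clone, and -0.12, -0.18 and -0.17 in the vector clone. Both were highest at number 3 in both clones. Their part in the result was not tested. In bulk RNA, fewer cells of a type and less RNA per cell cannot be told apart.

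By list median, markers of other cell types read below the table median of 5.94 on all 6 arrays. Flt3 of the dendritic cell list lay near that median. List medians over the 6 arrays ran from 4.29 to 4.49 for dendritic cells, from 3.79 to 3.99 for T cells, from 3.39 to 3.75 for NK cells, from 3.49 to 4.08 for B cells, from 3.60 to 4.08 for granulocytes and from 3.42 to 3.56 for fibroblasts and epithelium. By the F-test Cd79b of the B cell list was higher at number 3 (0.42 in the Ms4a8a clone and 0.46 in the vector clone), and Cd3e of the T cell list (-0.29 and -0.28) and S100a8 of the granulocyte list (-0.73 and -0.84) were lower. None of the dendritic cell, NK cell, or fibroblast and epithelium markers passed the F-test, which 30.1% of all genes did. Over the 6 arrays Flt3 read between 5.76 and 6.09 and Itgax between 4.73 and 5.52 (dendritic cells), Klrb1c between 4.42 and 4.74 and Klrk1 between 3.56 and 4.05 (NK cells), and Krt8 between 3.56 and 4.06 and Col1a1 between 3.40 and 3.72 (epithelium and fibroblasts). Of the defining macrophage markers, Csf1r, Lyz2 and Cd68 read between 12.66 and 14.48 on all arrays, while Mertk read between 2.24 and 2.62. Csf1r, Lyz2 and Mertk are named after their values were seen.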

How the data were processed

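Total RNA was measured on 6 arrays, by biotin-labelled cRNA in the standard Affymetrix protocol, per the labels' protocols. The authors deposited log2 values in 1 table of 17370 probe sets, whose 6 columns hold the same sorted values (largest difference 0), as after quantile normalisation. The summary method, background correction and software are not given in the sources used here. No further scaling was applied. The platform annotation names 16387 probe sets with 1 gene each, 64 are controls and 919 are unnamed. Symbols were updated through RefSeq gene IDs (GRCm38.p6) for 1778 probe sets.

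Clones were compared with limma 3.58.1 (R 4.3.3, lmFit and eBayes) on all named genes, two-sided, with Benjamini-Hochberg adjustment at 0.05, without the replicate block and, as an alternative, with it. The replicate number was tested by limma's F-test in a model with clone and number. Same-numbered arrays of the clones deviated together from their clone means (r = 0.709, 0.809 and 0.865 over genes, all above the limit of 0.1). Ms4a8a array 2 with vector array 1 gave 0.713, and Ms4a8a array 1 with vector array 2 gave 0.617. With number 3 apart in both clones, arrays 1 and 2 correlate across the clones however they are paired. The limit therefore cannot show that numbers 1 and 2 are rightly paired. For these, the block and the differences by number rest on the labels. The numbers come from the titles, and the source names give the same pairs. The fits were tested on simulated data. The members and the gene lists were chosen with earlier results of these data known. The motif AGTGAAAC and the test of numbers 1 and 2 alone were added after the data had been seen. Genes named from the lists are up to 4 per list that passed a test, by size of the difference, or the 2 of highest level where none passed, and the 6 genes with the highest and 3 with the lowest r to the members' mean. Other genes are marked in the text as named after their values were seen. The number of arrays limits the precision.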

Additional observations from a re-analysis of the deposited data

How the results depend on the processing

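In the clone comparison 0 of 9 members passed under all 15 alternatives run. The count over all genes was 7, and it was 149 with the replicate block, 1 when only genes no lower than the median by mean level were kept, 47 with array weights, 12 with a variance trend and robust fit, and 0 with a floor at the 20th percentile (673 genes at an unadjusted p under 0.05). Leaving out 1 array gave 0 to 8 genes, with 447, 330 and 783 genes at an unadjusted p under 0.05 for the 3 counts of 0 (without Ms4a8a array 2, vector array 1 and vector array 3), and leaving out both arrays of a number, with the block, gave 101, 104 and 434. The members' median clone difference of -0.21 ran from -0.35 to 0.30 with 1 array left out, and from -0.14 to -0.07 with a number left out under the block. The sign turned when 1 array was left out for H2-K1 (-0.26 to 0.70 over all 15), H2-D1 (-0.25 to 0.53), B2m (-0.33 to 0.30), Tap1 (-0.36 to 0.0387), Tapbp (-0.0615 to 0.52) and Nlrc5 (-0.64 to 0.36). B2m also turned with array weights (0.0785) and in the blocked fit without number 3 (0.00977). The cause was not tested, and the replicate block changed no call of a member. In the replicate number comparison 7 or 8 of 9 members passed under all 10 alternatives over the 3 numbers. In the test of numbers 1 and 2 alone, added after the data had been seen, 0 of 9 members and 19 of 16387 genes passed, against 4938 genes for all numbers. H2-K1, H2-D1, B2m, Tap2, Tapbp and Nlrc5 passed under all 10, Tap1 under 8 (highest adjusted p = 0.0554) and Psmb9 under 7 (highest 0.0855). Psmb8 passed only without vector array 3 (0.00559).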

Other observations

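Receptors and ligands that act next to class I molecules were measured for 4 of 12 listed genes. Cd47, the ligand of the inhibitory receptor SIRP-alpha, read 10.91 at number 3 and 9.54 and 8.98 at numbers 1 and 2 in the Ms4a8a clone, and 10.77, 8.71 and 8.82 in the vector clone (F-test adjusted p = 0.00136). Pirb, an inhibitory receptor for class I molecules on myeloid cells, read 5.21 at number 3 and 4.25 and 4.21 at numbers 1 and 2 in the Ms4a8a clone, and 5.28, 4.02 and 4.35 in the vector clone (F-test adjusted p = 0.00206). The other 2 genes, H60b and Clec2d, named after their values were seen, did not pass the F-test, which 30.1% of all genes did. None of the 4 passed in the clone comparison, against 0.0427% of all genes, or with the block, against 0.909%.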
